A study of Mus musculus with 162 samples.

Results

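Neurotrophins and their receptors were described across 9 mouse organs and 6 fasting times. The group is a list of gene symbols and holds 6 of the 53686 genes of the count table, all of which were found: the ligands Bdnf, Ntf3 (neurotrophin-3) and Ntf5 (neurotrophin-4/5), the receptor tyrosine kinases Ntrk2 (TrkB) and Ntrk3 (TrkC), and the p75 receptor Ngfr. Messenger RNA was sequenced from olfactory bulb (OB), brain without cerebellum and brainstem (BRN, telencephalon and diencephalon), cerebellum (CBL), brainstem (BST, midbrain, pons and medulla), brown fat from between the shoulder blades (iBAT), white fat of the perigonadal (pgWAT) and the posterior subcutaneous (psWAT) depots, liver (LIV) and stomach (STM). The donors were 18 male C57BL/6J mice of 8 to 9 weeks, each giving all 9 organs, with 3 mice fed ad libitum (0 h) and 3 mice without food for 2, 8, 12, 18 or 22 h before a common time of killing early in the dark period. All groups were wild type and received no agent. Food was withdrawn at a different clock time for each duration, so that the length of the fast and the hour at which it began cannot be told apart. Replicates were separate mice, and p-values measure the spread between mice of 1 time point and 1 dissection.

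Neurotrophins are secreted growth factors that neurons depend on for survival, growth of their processes and plasticity of their synapses. BDNF and neurotrophin-4/5 bind TrkB, neurotrophin-3 binds mainly TrkC, and all of them bind p75, which also pairs with sortilin family proteins to receive the uncleaved pro-forms. BDNF and TrkB in the hypothalamus are known to restrain food intake, and TrkB and TrkC are both made as full-length kinases and as forms that lack the kinase domain. A gene count sums all forms and cannot separate them.

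On GRCm38 the ligand genes lie at chr2:109674700-109727007 on the plus strand (Bdnf), chr6:126101412-126166910 on the minus strand (Ntf3) and chr7:45413695-45417179 on the plus strand (Ntf5). The receptor genes lie at chr13:58806569-59133970 on the plus strand (Ntrk2), chr7:78175959-78738012 on the minus strand (Ntrk3) and chr11:95568818-95587735 on the minus strand (Ngfr). Their merged exons, over all isoforms, span 30170 bases in Ntrk3, 19292 in Ntrk2, 6217 in Bdnf, 3446 in Ngfr, 2653 in Ntf5 and 1714 in Ntf3. Exons of Bdnf share 896 bases with those of the antisense gene Gm45346, and reads of the overlap could be assigned to one or the other only by strand.

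Bdnf is transcribed from several start sites whose transcripts all count towards 1 value, and the first of its 7 windows in the RefSeq table of GRCm38.p6 is shown with the window that holds a cyclic AMP response element (CRE) half-site, the letter string TGACG or its reverse complement CGTCA. The single window of Ntrk2 is shown beside them, because Ntrk2 and Bdnf are the receptor and ligand whose BRN libraries are compared below. Each sequence is the plus strand of the 250 bases before a start, which is the coding strand for both genes, and capitals mark the half-site.

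Bdnf window 1, chr2:109674450-109674699: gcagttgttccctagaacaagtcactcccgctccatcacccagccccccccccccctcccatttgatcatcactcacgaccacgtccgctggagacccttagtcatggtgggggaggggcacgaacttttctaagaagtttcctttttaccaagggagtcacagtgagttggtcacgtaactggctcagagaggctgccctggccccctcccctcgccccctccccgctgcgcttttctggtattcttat

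Bdnf window 3, chr2:109692186-109692435: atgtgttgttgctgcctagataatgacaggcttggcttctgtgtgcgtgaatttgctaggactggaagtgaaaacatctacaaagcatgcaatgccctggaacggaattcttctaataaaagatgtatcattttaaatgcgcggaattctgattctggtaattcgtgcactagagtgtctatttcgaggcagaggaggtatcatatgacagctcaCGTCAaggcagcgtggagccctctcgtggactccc

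Ntrk2 window, chr13:58806319-58806568: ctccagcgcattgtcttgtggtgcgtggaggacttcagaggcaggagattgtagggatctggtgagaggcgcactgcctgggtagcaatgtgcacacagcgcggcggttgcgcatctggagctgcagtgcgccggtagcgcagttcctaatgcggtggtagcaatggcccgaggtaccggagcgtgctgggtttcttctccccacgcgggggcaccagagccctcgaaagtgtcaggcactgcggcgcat

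The half-site was searched on both strands, and it was absent from the other 6 Bdnf windows, from both Ntf3 windows and from the Ntrk2 and Ngfr windows. Of 32851 windows of the same length 17.8% held it. The full CRE TGACGTCA, of which the half-site is a part, was in 1.55% of windows and in none of the members' windows. The E-box CACGTG was in 6.02% of windows and, among the members, in 1 of the Ntf3 windows. These matches are letters in a window and no binding was measured.

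A level is given here as CPM, counts scaled to a common library total, with that total scaled by its TMM factor, called normalized CPM. For levels across organs the factors were computed over the 9 organs together, and for changes with fasting within each organ. Levels were averaged over all fasting times of an organ, with 18 libraries each in OB, CBL, BST, LIV and pgWAT, 17 in STM, iBAT and psWAT, and 16 in BRN.

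The kept libraries held 3045845 to 27801717 counts, with a median of 8696326 over all libraries, and 3 counts, the level taken as the floor, lay between 0.107 and 1.10 normalized CPM. The summed CPM of markers of the organ was higher in each library of OB, CBL, BST, STM, LIV and iBAT than in any library of another organ, in OB for instance 549 to 742 against at most 66.96 elsewhere. The telencephalic marker sum of BRN, 733 to 1332, overlapped with that of other organs (up to 922). In psWAT the white fat sum ranged from 53.96 to 4823, and the library psWAT 12 h replicate 3 held cerebellar markers at 4485 CPM against 0.53 to 45.1 in the other psWAT libraries. Over 21601 genes every BRN library lay nearest to the BRN mean, but 18 h replicate 2 and 12 h replicate 2 stood apart, at root mean square log2 distances from it of 1.29 and 0.961 against 0.347 to 0.591 in the others. By the same measure psWAT 8 h replicate 1 lay nearer to the pgWAT mean (0.8695) than to the psWAT mean (0.9989), and psWAT 12 h replicate 3 nearest to that of CBL. The 5 libraries that the study left out were not used unless stated.

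The ligands were rare transcripts. Bdnf was highest in the nervous system, at 18.7 ± 3.83 normalized CPM in CBL (SD, n = 18), 13.7 ± 5.68 in BRN (n = 16), 11.9 ± 2.27 in BST (n = 18) and 9.32 ± 1.67 in OB (n = 18). It was at 2.29 ± 1.29 in LIV (n = 18) and at 0.928 ± 0.533 in STM (n = 17), and its mean stayed under 1 in the 3 adipose tissues. The psWAT mean of 0.916 ± 3.05 (n = 17) rested on the library with cerebellar markers, where Bdnf was at 12.7, and without that library it was 0.178 ± 0.258 (n = 16). Neighbouring organs in the order of a member's mean level were compared with edgeR's quasi-likelihood test on the counts in 1 fit over organ and time, with Benjamini-Hochberg adjustment over all genes. Over the 25 pairs of organs that were neighbours for some member, 72.9% of all gene tests passed an adjusted p of 0.05 (51.2 to 84.8% in a pair), and 21 of the 48 tests of members did, so that a difference between neighbours is no particular feature of these genes.

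For Bdnf the order CBL, BRN, BST, OB held no step past the threshold by edgeR (log2 differences of 0.45, 0.21 and 0.36, adjusted p from 0.18 to 0.58). OB lay above LIV by 2.03 (SE 0.32, edgeR adjusted p = 3.8e-09), and LIV above STM by 1.21 (SE 0.37, edgeR adjusted p = 0.0018). Without the psWAT library with cerebellar markers, Bdnf in CBL lay above BRN in the same test (edgeR adjusted p = 0.046), and pgWAT lay above psWAT.

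Ntf3, the TrkC ligand, had another order. It was at 5.23 ± 0.832 in CBL (SD, n = 18) and 4.00 ± 2.29 in iBAT (n = 17), then at 2.63 in STM, 1.66 in psWAT, 1.503 in BRN, 1.49 in pgWAT, 1.05 in LIV and 0.478 in BST. OB was lowest at 0.039, with 0 counts in 9 of its 18 libraries. The brain region with the most Ntf3 and the one with the least are therefore both in the nervous system, and the step from BST down to OB was 3.23 (SE 0.37, edgeR adjusted p = 5.8e-14). CBL and iBAT did not pass the test against each other (log2 0.42, SE 0.24, edgeR adjusted p = 0.096). iBAT lay above STM (0.58, edgeR adjusted p = 0.030), a call that DESeq2 did not make (adjusted p = 0.053).

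Ntf5, the other TrkB ligand, was near the floor in most organs. Its highest mean was 1.05 ± 0.478 normalized CPM in STM (SD, n = 17), followed by 0.563 in pgWAT and 0.481 in psWAT, and the step from STM to pgWAT had an edgeR adjusted p of 0.040 and a DESeq2 adjusted p of 0.054. No count was found in 9 of 16 BRN, 11 of 18 OB and 15 of 18 LIV libraries. Ntf5 passed the filter on low counts only in STM and psWAT, and its changes with fasting were tested in those organs alone.

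**Figure D1:**
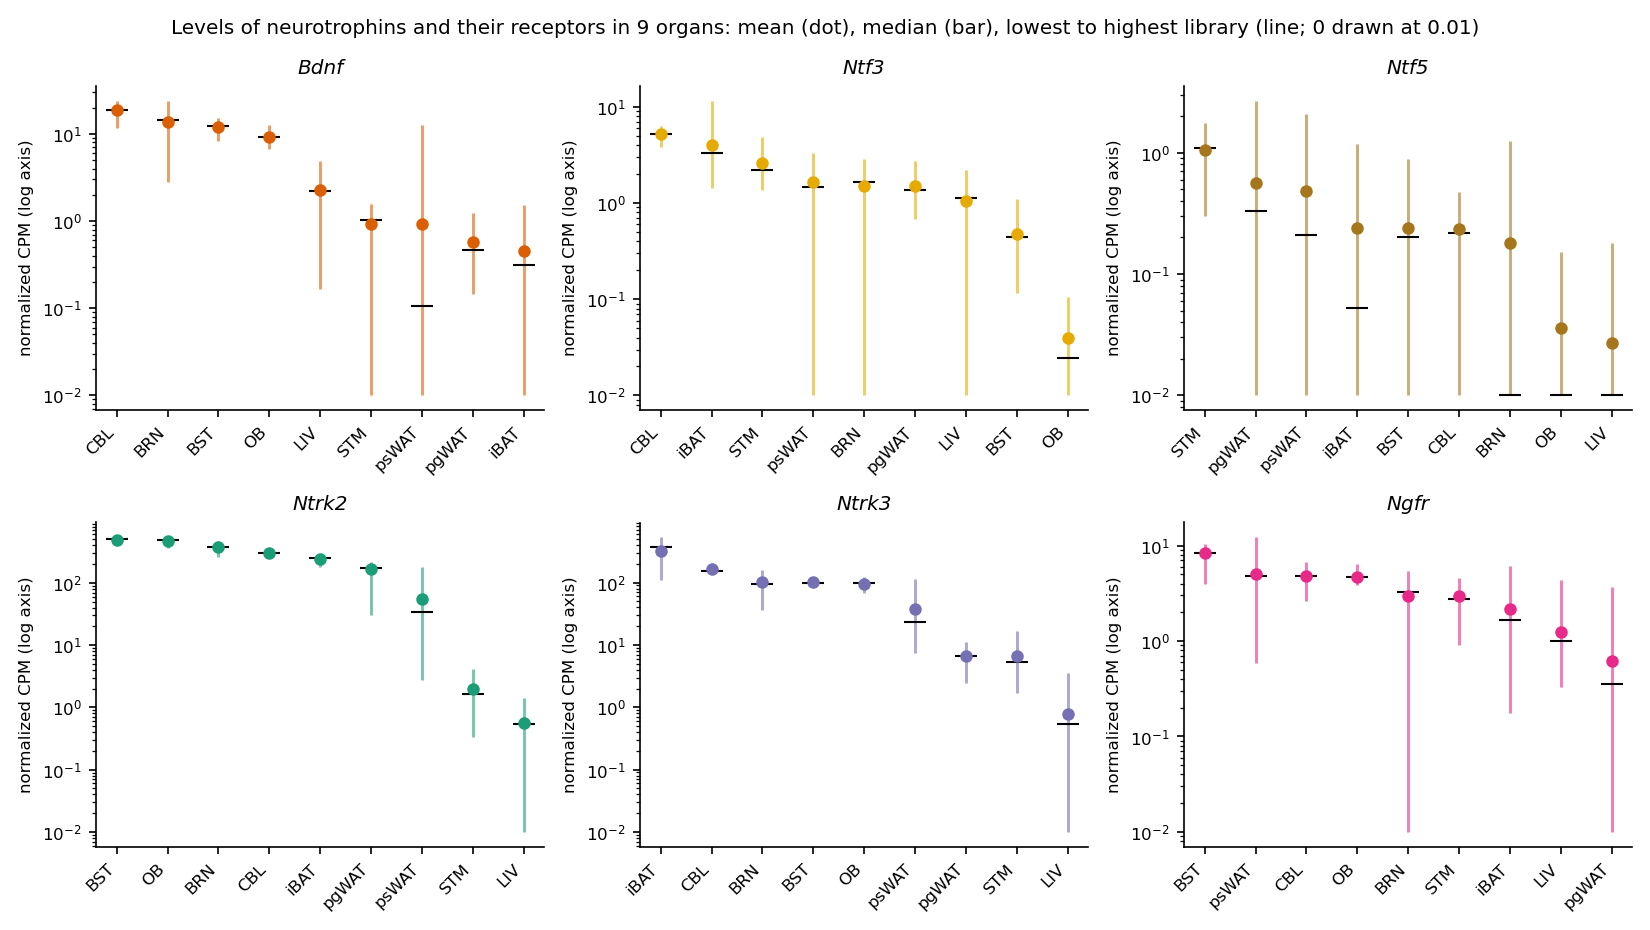
Level of each of the 6 genes by organ (normalized CPM, log axis) over the kept libraries, with the mean as a dot, the median as a bar and a line from the lowest to the highest library, 0 being drawn at 0.01. Bdnf is highest in the 4 nervous system organs, Ntrk3 has its highest mean in iBAT (326), and no organ mean of Ntf5 exceeds 1.05.

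Of the receptors, Ntrk2 had its highest means in the nervous system. It was at 498 ± 33.3 normalized CPM in BST, 469 ± 49.01 in OB and 305 ± 15.5 in CBL (SD, n = 18 each) and at 379 ± 65.01 in BRN (n = 16). iBAT with 244 ± 32.0 (n = 17) and pgWAT with 164.7 ± 47.6 (n = 18) were close behind the brain regions, psWAT was at 55.7 ± 55.05 (n = 17), and STM (1.99) and LIV (0.563) were near the floor. None of the 4 steps from BST down to iBAT passed the test (log2 0.09 to 0.34, edgeR adjusted p 0.13 to 0.73), and each step from iBAT down to LIV did. The largest was that from psWAT to STM at 4.68 (SE 0.26, edgeR adjusted p = 2.0e-37). Without the TMM factor OB came before BST and pgWAT before iBAT, so that these 2 places in the order depend on the scaling.

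Ntrk3 was highest outside the nervous system. Its mean was 326 ± 116.7 normalized CPM in iBAT (SD, n = 17), 162.4 ± 20.5 in CBL (n = 18), 101.8 ± 38.8 in BRN (n = 16), 100.9 ± 8.12 in BST and 95.4 ± 14.6 in OB (n = 18 each). iBAT lay above CBL by a log2 difference of 1.00 (SE 0.22, edgeR adjusted p = 2.9e-05) and CBL above BRN by 0.66 (SE 0.23, edgeR adjusted p = 0.0085), while BRN, BST and OB did not pass the test as neighbours. The white adipose tissues were far lower, with 37.5 ± 34.6 in psWAT (n = 17) and 6.73 ± 2.68 in pgWAT (n = 18). In bulk tissue a lower share of the cells that make a transcript and less of it in each cell cannot be told apart, which holds for every level and change given here.

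Ngfr was highest in BST and was at 8.31 ± 1.59 normalized CPM in BST (SD, n = 18), 4.99 ± 3.65 in psWAT (n = 17), 4.81 in CBL, 4.67 in OB, 2.99 in BRN, 2.97 in STM, 2.17 in iBAT, 1.24 in LIV and 0.619 in pgWAT. BST lay above psWAT (log2 0.76, SE 0.27, edgeR adjusted p = 0.0067). In psWAT the summed Schwann cell markers ranged from 13.4 to 414 CPM between libraries, and their part in the Ngfr level was not tested.

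Levels of different genes were set side by side per kb of merged exon. In BRN Ntrk2 was at 19.6 normalized CPM per kb, Ntrk3 at 3.37, Bdnf at 2.20, Ntf3 at 0.877, Ngfr at 0.866 and Ntf5 at 0.068. On this scale, whose lengths cover all isoforms of a gene, the TrkB gene ranked first among the members in BRN and the Ntf5 gene last. In iBAT both Trk receptors were at similar levels per kb, Ntrk2 at 12.6 and Ntrk3 at 10.8, next to Ntf3 at 2.33 and Bdnf at 0.073.

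Over the 54 organ and time means the levels of Ntrk2 and Ntrk3 had a Pearson r of 0.85 on the log2 scale, a description over points that share libraries and organs. By the same measure among 21601 genes, the genes most like each member were Rfx4 (0.97), Aifm3 (0.97) and Aldoc (0.96) for Bdnf, and Nat8l (0.98), Bhlhb9 (0.97) and Ccdc85a (0.96) for Ntrk2. For Ntrk3 they were Rgs7 (0.95), Lurap1 (0.94) and Dio2 (0.94), and for Ngfr Mon1b (0.89), 2310022A10Rik (0.86) and Suv39h2 (0.85). Ntf3 had Mapk12 (0.77), Tead4 (0.75) and Ets2 (0.75), and Ntf5 had Tmem189, Sptlc2 and Flna (0.82 each).

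The change with fasting was asked in each organ as a late fast, the mean of 18 and 22 h against 0 h, and as a daytime fast, the mean of 8 and 12 h against 0 h, in 1 edgeR fit of the 6 times per organ. A gene was called at a Benjamini-Hochberg adjusted p under 0.05 over all genes tested in the organ. Over the organs the late fast gave 40 tests of members, of which 5 were called, with 27 of the 40 log2FC below 0, where 6.44% of all gene tests of the 9 organs were called. The daytime fast gave 40 tests, of which 1 was called, with 16 below 0, against 1.9% of all gene tests. The 5 late calls were Ntrk3 and Ngfr in BRN, Ntrk3 in OB, Ntrk3 in STM and Ngfr in iBAT, and those of Ngfr in BRN and iBAT and of Ntrk3 in STM had an absolute log2FC over 1.

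BRN held 2 of the 5 late calls. In it 5 members could be tested, 2 of them were called in the late fast against 11.2% of all genes (1883 of 16749), and 1 in the daytime fast against 8.16% (1366). Ntrk3 and Ngfr were lower in the late fast, Bdnf and Ntrk2 had log2FC below 0 that did not pass the test, and the fed and late values of Ntf3 overlapped.

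Bdnf in BRN was at 20.9, 26.6 and 21.4 normalized CPM in the fed mice. It was at 17.9, 17.4 and 16.1 at 2 h, 14 and 17.4 at 8 h, and 16.7, 3.59 and 15.6 at 12 h. At 18 h it was at 4.42 and 15, and at 22 h at 9.88, 10.2 and 16.7. Every fasted library lay below every fed library, and the lowest values, 3.59 and 4.42, came from the 2 shallowest BRN libraries, 12 h replicate 2 (3152641 counts) and 18 h replicate 2 (3045845). The late log2FC was -1.04 (SE 0.38, edgeR adjusted p = 0.077), and DESeq2 called it (adjusted p = 0.040). The daytime log2FC was -0.72 (edgeR adjusted p = 0.24).

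Ntf3 in BRN was at 2.05, 1.95 and 0.629 normalized CPM in the fed mice, 0 and 1.73 at 18 h, and 1.57, 0.743 and 1.98 at 22 h. The fed and the late libraries overlapped, and the late log2FC was -0.37 (SE 0.84, edgeR adjusted p = 0.81).

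Ntrk2 in BRN, the receptor for BDNF, was at 498, 478 and 481 normalized CPM in the fed mice and at 465, 484 and 498 at 2 h. It was at 402 and 433 at 8 h and at 394, 393 and 443 at 12 h. The late libraries were at 404 and 415 (18 h) and at 332, 308 and 441 (22 h). From 8 h on each library lay below the fed range, with a late log2FC of -0.34 (SE 0.13, edgeR adjusted p = 0.081) and a daytime log2FC of -0.23 (edgeR adjusted p = 0.26).

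Ntrk3 in BRN, the receptor for neurotrophin-3, was at 168.4, 166.04 and 176 normalized CPM in the fed mice and at 114.99, 163 and 128 at 2 h. It was at 94.5 and 100 at 8 h and at 98.7, 46.6 and 91.7 at 12 h. At 18 h it was at 90.5 and 112.1, and at 22 h at 76.6, 66.3 and 132.6. All fasted libraries lay below the fed ones, with the lowest value again in 12 h replicate 2. The daytime log2FC was -0.95 (SE 0.23, edgeR adjusted p = 0.021) and the late log2FC -0.82 (SE 0.23, edgeR adjusted p = 0.031). The late call held without 18 h replicate 3 or 22 h replicate 3 and was lost without any 1 of the other 6 libraries of the contrast (0 h replicates 1, 2 and 3, 18 h replicate 2, 22 h replicates 1 and 2), where the log2FC was -0.82 to -0.72 and the edgeR adjusted p 0.071 to 0.12. The daytime call was lost without any 1 of the 3 fed or 2 8 h libraries (edgeR adjusted p 0.070 to 0.13).

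Ngfr in BRN was at 5.51, 2.1 and 5.87 normalized CPM in the fed mice. It was at 0 and 0.385 at 18 h, from 0 and 2 counts, and at 5.18, 3.35 and 2.57 at 22 h. The 2 libraries of 18 h were the lowest of the organ and those of 22 h lay within the fed range, so that the late log2FC of -2.21 (SE 0.64, edgeR adjusted p = 0.035) rested on 18 h. Taken alone, 18 h gave -4.14 (edgeR adjusted p = 0.039), a fitted value that depends on the prior count, and 22 h gave -0.29 (edgeR adjusted p = 0.82). The 2 summed counts of 18 h against 129 at 0 h gave a ratio of 0.0527 per normalized depth, with an exact 95% interval of 0.0063 to 0.194 that covers counting error only. Jointly over the 6 times no member of BRN passed (edgeR adjusted p = 0.14 for Ntrk3 and 0.22 for Ngfr), in a test that called 0.00597% of genes (1 by edgeR, 1577 by DESeq2, 2779 at an unadjusted p under 0.05), and DESeq2 called both (adjusted p = 0.014 and 0.027). The late call of Ngfr was lost without any 1 fed library, 18 h replicate 2 or 22 h replicates 1 or 2 (edgeR adjusted p 0.051 to 0.15).

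**Figure D2:**
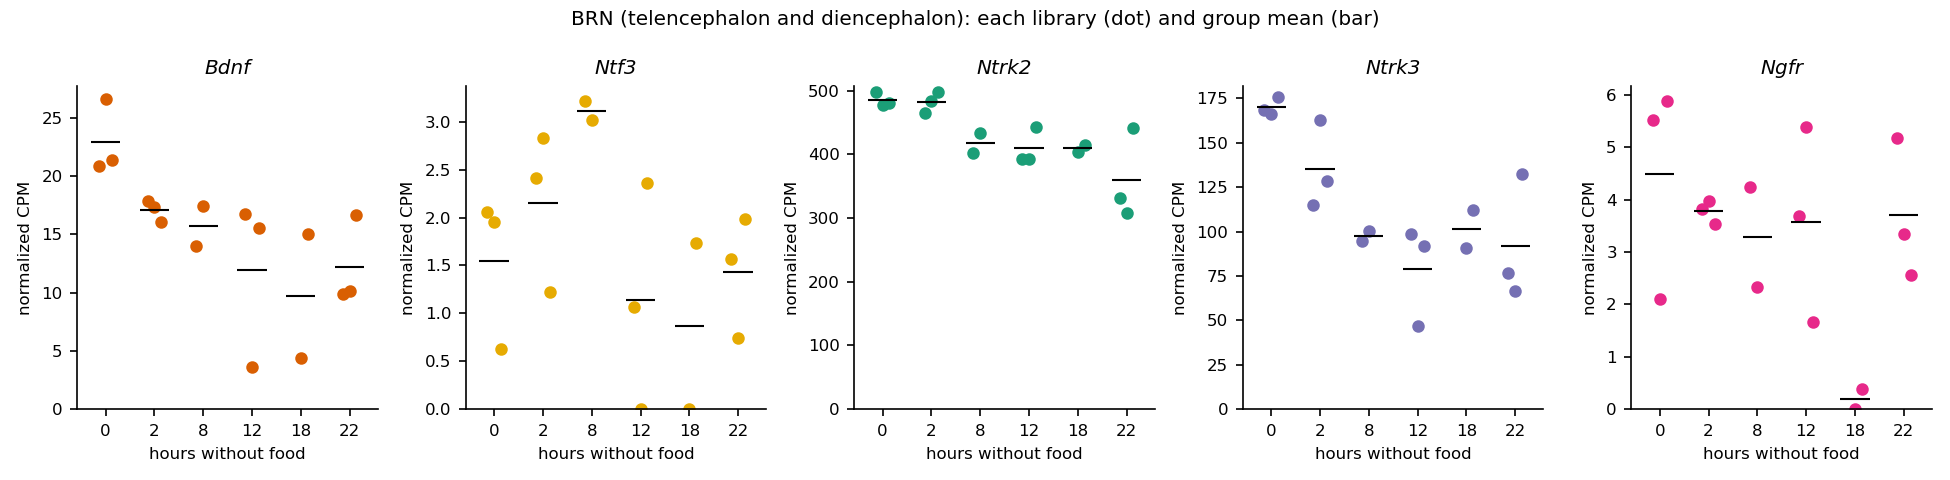
Normalized CPM of the 5 tested members in BRN against hours without food, with 1 dot per library and a bar at the mean of each time. The means of Bdnf and Ntrk3 are highest at 0 h, and Ngfr is at 0 and 0.385 in the 2 libraries of 18 h.

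The BRN libraries carried numbers of 2 series in their names, and time and series were crossed only in part, at 2 and 12 h. One series held the 3 fed libraries, 2 h replicate 3 and 12 h replicate 3, the other all else, including every late library, so that late fast and series cannot be told apart. Within the first series Ntrk3 was at 168.4, 166.04 and 176 normalized CPM at 0 h, at 128 at 2 h and at 91.7 at 12 h. Bdnf was at 20.9, 26.6 and 21.4, then at 16.1 and 15.6. Both genes were lower in the 2 fasted libraries of that series than in its fed libraries, which did not hold for the other members. Ngfr was at 3.53 at 2 h, within its fed range of 2.1 to 5.87, and at 1.65 at 12 h. Ntrk2 at 2 h (498) also lay within its fed range, and Ntf3 at 12 h (2.36) lay above its own. With the series as a covariate the late log2FC was -0.72 for Ntrk3 (edgeR adjusted p = 0.52) and -2.90 for Ngfr (edgeR adjusted p = 0.44), and 0 genes of the organ were called.

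Markers of other cells moved in BRN too. The summed CPM of the 4 oligodendrocyte markers, all detected, was 5990 to 8070 in the fed libraries, 10463 to 17691 in the daytime fast and 7179 to 23822 in the late fast. That of the 5 neuronal markers was 3752 to 4398 in the fed and 1959 to 4029 in the late libraries, and that of the 6 telencephalic markers 1172 to 1219 and 733 to 1168. The neuronal and telencephalic sums of the late libraries thus reached lower, and the oligodendrocyte sums higher, than in the fed libraries, and the part of this makeup in the members' values was not tested. Without BRN 2 h replicate 3 and 18 h replicate 2, which an earlier result of these data had placed near CBL, the late log2FC was -0.74 for Ntrk3 (edgeR adjusted p = 0.13) and -1.90 for Ngfr (edgeR adjusted p = 0.11).

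Late fold changes in BRN also followed the length of a gene's merged exons. Across 16430 genes with a known length, 98.1% of those tested, the late log2FC fell by 0.238 for each 2-fold increase in length. Of 10 bins of genes by length, that with the shortest exons (median 731 bases) had a median late log2FC of 0.61 and that with the longest (12152 bases) one of -0.53. The slope was -0.252 in iBAT, -0.210 in pgWAT and 0.099 in STM, and it lay between -0.057 (OB) and 0.070 (psWAT) in the other 5 organs. This is a relation across genes, which are not independent replicates, and its cause was not tested.

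Ntrk2 and Ntrk3 are longer than most genes, and the changes of the members were read against genes within 25% of their own length. Each such set includes the member itself. The late log2FC of Ntrk3, -0.82, lay beside a median of -0.81 over the 39 genes of like length, and that of Ntrk2, -0.34, beside -0.66 over 313 genes. The value for Bdnf, -1.04, lay beside -0.23 over 3549 genes, and that of Ngfr, -2.21, beside 0.01 over 3650. That of Ntf3, -0.37 (SE 0.84), lay beside 0.35 over 1608 genes. Ntrk3 was thus at the median of genes as long as it is, Ntrk2 less reduced, and Bdnf, Ngfr and Ntf3 lower than their medians. With offsets for gene length in the fit, Ntrk3 had a late log2FC of 0.01 (edgeR adjusted p = 0.97), Ntrk2 one of 0.36 (0.092), Bdnf -0.83 (0.14), Ntf3 -0.64 (0.69) and Ngfr -2.24 (0.049).

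**Figure D3:**
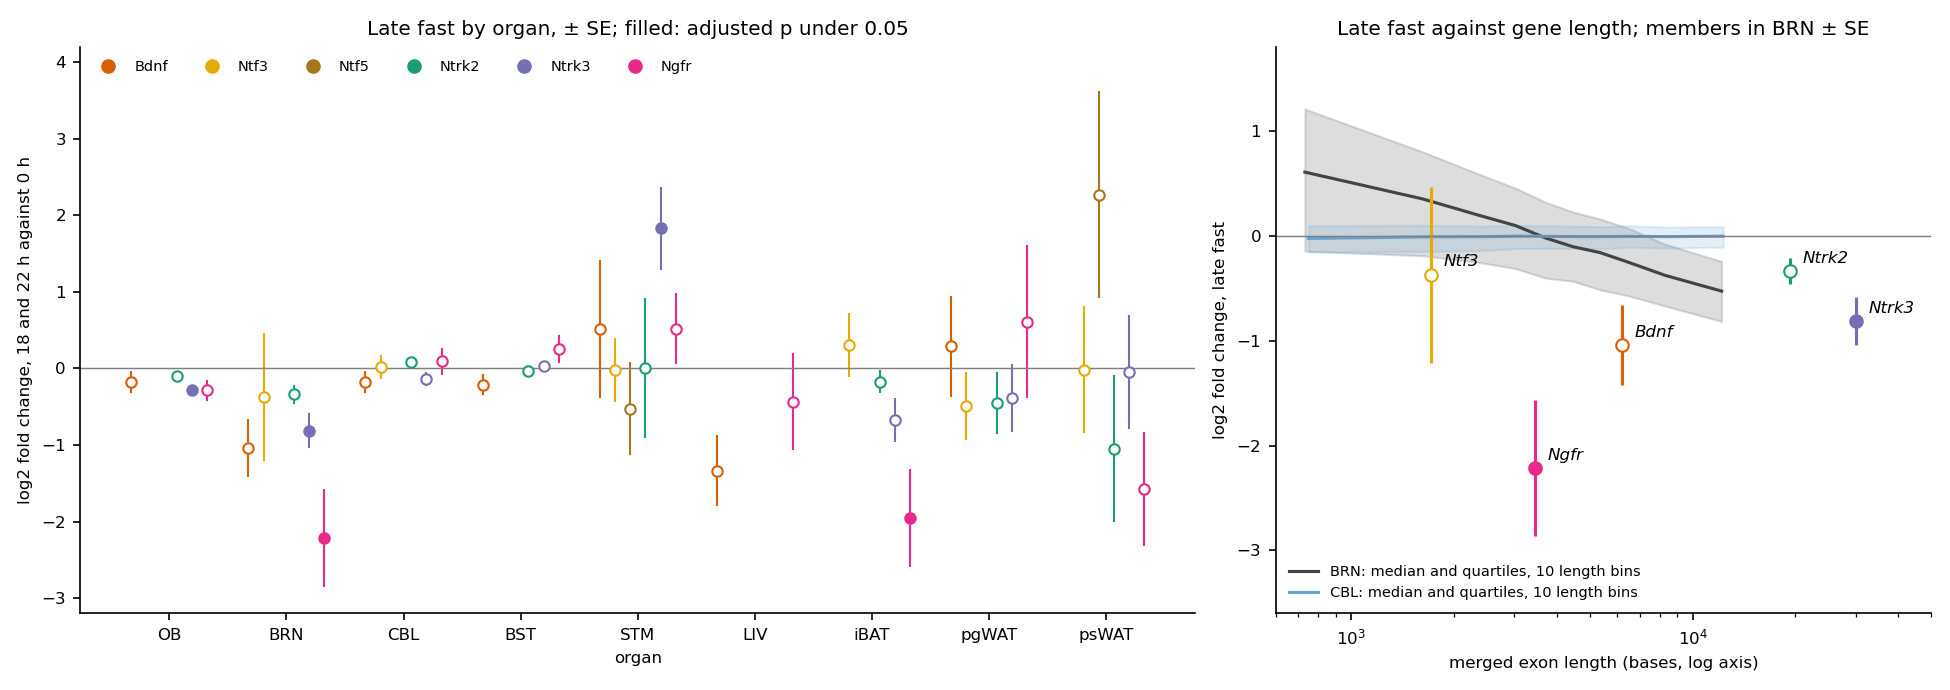
Left, the late log2FC ± SE of every tested member by organ, with filled dots for an edgeR adjusted p under 0.05. Right, the late log2FC against merged exon length (bases, log axis) as medians (line) and quartiles (band) of 10 bins of genes by length in BRN and CBL, with the BRN members ± SE. The BRN medians run from 0.61 to -0.53, those of CBL stay near 0, and Ngfr lies below the band of BRN.

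Whether the late change in BRN differed from that in the other brain regions was tested as an interaction in 1 fit over OB, BRN, CBL and BST. Compared with CBL, the BRN effect was lower by 2.33 on the log2 scale for Ngfr (SE 0.50, edgeR adjusted p = 3.9e-04), by 0.83 for Bdnf (0.028), by 0.68 for Ntrk3 (0.0041) and by 0.44 for Ntrk2 (0.0020), in a contrast in which 29.3% of 18313 genes were called. Compared with BST, the BRN effect was lower by 2.49 for Ngfr (edgeR adjusted p = 1.4e-04), by 0.79 for Bdnf (0.044), by 0.85 for Ntrk3 (4.4e-04) and by 0.31 for Ntrk2 (0.026), where 30.7% of genes were called. Compared with OB, where 17.5% of genes were called, it was lower by 1.93 for Ngfr (edgeR adjusted p = 0.0068) and by 0.52 for Ntrk3 (0.045), and the differences for Bdnf (-0.80, 0.059) and Ntrk2 (-0.23, 0.14) did not pass. With the animal as a block, the contrast with OB gave an edgeR adjusted p of 0.033 for Bdnf and 0.051 for Ntrk3. With the left-out BRN libraries added, the called members were Ngfr in the contrast with OB, and Ngfr and Ntrk3 in that with BST. In that with CBL, Ngfr, Bdnf, Ntrk3 and Ntrk2 stayed called. The series and cell marker differences of BRN given above enter each of these contrasts. That with CBL also carries the difference in depth between fed and fasted CBL libraries given below.

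Of the 97 genes of lists around the pathway, 96 were in the table and 94 were tested in BRN. In the late fast 5 of them rose and 8 fell (13.8%, against 11.2% of all genes, of which 1185 rose and 698 fell), with a median log2FC of -0.34 against -0.09 over all genes. Among the partners of p75, 3 of 13 rose and none fell: Bex3 (log2FC 0.76, edgeR adjusted p = 0.019), Arhgdia (0.50, 0.031) and Bex1 (0.60, 0.038). Bex3 encodes a protein that binds the death domain of p75. Of the processing, release and sorting genes, 2 of 17 fell, the sortilin family receptors Sorl1 (-0.80, edgeR adjusted p = 0.012) and Sort1 (-0.75, 0.043). Among the Trk adaptors 3 of 20 fell, with the Ras exchange factor Sos1 (-1.22, edgeR adjusted p = 0.028) and the scaffold Kidins220 (-0.53, 0.037) among them. The regulators of the Bdnf gene had Usf1 higher (0.90, edgeR adjusted p = 0.031) and Mef2d lower (-0.60, 0.030), the synaptic scaffold Homer1 fell (-0.53, 0.044) and the kinase Map2k2 rose (0.55, 0.024). Of the 16 other activity and TrkB response genes none was called. In the daytime fast 7.45% were called, against 8.16% of all genes, and 3 list genes rose, Bex3 (0.81), Map2k2 (0.62) and Arhgdia (0.56), and 4 fell, among them Sorl1 (-0.62), Sorcs1 (-0.95) and Kidins220 (-0.52). In the late fast 1 list gene was called with length offsets and none with the series as a covariate.

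In OB the log2FC of the 4 tested members lay between -0.29 and -0.10 and 1 was called, against 1.95% of all genes (327 of 16742). Ntrk3 was at 120.99, 129 and 107 normalized CPM at 0 h, at 83.1, 89.6 and 82.8 at 18 h and at 111.08, 114.9 and 111.6 at 22 h. The 3 libraries of 18 h lay below all others of the organ and those of 22 h lay within the fed range. The late log2FC was -0.28 (SE 0.07, edgeR adjusted p = 0.037), at 18 h alone -0.48 (0.0048) and at 22 h alone -0.08 (0.76). Over the 6 times jointly its edgeR adjusted p was 0.0015, in a test that called 15.4% of genes. Leaving out 0 h replicate 1 or 2, 18 h replicate 1 or 3, or 22 h replicate 1 or 3 lost the late call (edgeR adjusted p 0.052 to 0.18). Sequencing lane and time were confounded in OB, with the fed and 2 h libraries in 1 lane and those of 12 to 22 h in another, and cannot be told apart. Neuronal marker sums were alike, at 3982 to 4386 CPM in the fed and 3953 to 4342 in the late libraries, and genes of like length to Ntrk3 had a median late log2FC of -0.27 (40 genes). Of the 94 list genes tested in OB, 2 (2.13%) fell, the kinase Rps6ka3 (-0.41, edgeR adjusted p = 0.032) and the convertase Pcsk5 (-0.78, 0.046).

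CBL and BST showed no called member in the late or the daytime fast by edgeR or DESeq2. Jointly over the 6 times edgeR called 2.99% of genes in CBL and 0.107% in BST, among them no member, while DESeq2 called Bdnf in CBL (adjusted p = 0.041) and edgeR without the filter on low counts called 2 members in CBL and 1 in BST. In CBL the late log2FC of the 5 tested members ran from -0.17 to 0.09, and 0.344% of genes were called (55 by edgeR, 349 by DESeq2, 2402 at an unadjusted p under 0.05). Ntrk2 in CBL was at 336 to 373 normalized CPM in the fed libraries, and its 6 daytime libraries, at 374 to 423, all lay above them, with a log2FC of 0.14 (edgeR adjusted p = 0.32) in a contrast where 0% of genes were called (0 by edgeR, 54 by DESeq2, 1946 at an unadjusted p under 0.05). The fed CBL libraries held 20396385 to 22071004 counts and every fasted one at most 9487976. Depth and fed state therefore cannot be told apart in CBL. In BST the 4 tested members had late log2FC from -0.21 to 0.25, and 0.0596% of genes were called (10 by edgeR, 22 by DESeq2, 1656 at an unadjusted p under 0.05). Bdnf in BST was at 9.57 to 14.7 normalized CPM in the fed and at 9.24 to 13.9 in the late libraries.

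In STM all 6 members could be tested and 1 was called, against 15.3% of genes (2491 of 16281). Ntrk3 was at 1.45, 3.49 and 2.51 normalized CPM at 0 h, at 14.8, 1.98 and 14.1 at 18 h and at 5.52, 9.45 and 8.31 at 22 h. Of the 6 late libraries 5 lay above the fed range, and 18 h replicate 2 lay within it. The late log2FC was 1.83 (SE 0.54, edgeR adjusted p = 0.033), and without 18 h replicate 2 it was 2.07 (0.0038). At 18 h alone it was 2.03 (edgeR adjusted p = 0.031), at 22 h alone 1.62 (0.14), and with the replicate block 1.78 (0.054). Jointly over the 6 times Ntrk3 did not pass (edgeR adjusted p = 0.17), in a test that called 6.55% of genes, and DESeq2 called it (adjusted p = 0.048). The call was lost without 0 h replicate 1 or 3, 18 h replicate 1 or 3, or 22 h replicate 3 (edgeR adjusted p 0.051 to 0.13). The other 5 members had late log2FC from -0.53 to 0.52.

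Markers of cell makeup moved in STM too. Smooth muscle markers summed to 3274 to 6481 CPM in the fed and 5170 to 15721 in the late libraries, with 11801, 5170 and 11823 in replicates 1 to 3 of 18 h and 6924, 9855 and 15721 in those of 22 h. The 18 h library with the lowest of these sums, replicate 2, also had the lowest Ntrk3 of that time. The highest sum belongs to 22 h replicate 3, where Ntrk3 was at 8.31. Stomach epithelial markers were at 30596 to 64898 in the fed libraries and, at 18 h, at 8657, 29703 and 8930. Neuronal markers summed to 15.6 to 26.8 in the fed and 44.7 to 77.6 in the late libraries, the lowest of them being 18 h replicate 2. The parts of these in the Ntrk3 value were not tested, and lane and time were confounded in STM. Among 92 list genes tested in STM, 6 rose and 4 fell in the late fast, which is 10.9% against 15.3% of all genes (1011 up and 1480 down). At 22 h alone 0 list genes were called, and with a fed group of 0 and 2 h 20 were. The activity and TrkB response genes held 3 of the 6, the phosphatase Dusp1 (log2FC 1.41) and the immediate early transcription factors Nr4a1 (1.14) and Npas4 (1.99), while Dusp6 (-0.62) fell. Nradd (0.94) and Cbl (0.65) were among the others that rose, and Map2k1 (-0.74), the convertase Pcsk1 (-0.94) and the adaptor Crk (-0.55) fell.

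In LIV only Bdnf and Ngfr passed the filter, and edgeR called neither in the late fast, against 10.6% of genes (1484 of 14023). Bdnf in LIV was at 1.41, 2.16 and 2.25 normalized CPM at 0 h, at 2.27, 0.557 and 1.24 at 18 h and at 0.106, 0.728 and 0.435 at 22 h, from 1 to 32 counts a library over all times. All 3 libraries of 22 h lay below the fed ones, and 18 h overlapped with them. The fed LIV libraries were sequenced in 1 lane and the late ones in another, so that lane and late fast cannot be told apart. The late log2FC was -1.34 (SE 0.46, edgeR adjusted p = 0.066), which DESeq2 called (adjusted p = 0.043), at 22 h alone -2.19 (0.041) and at 18 h alone -0.48 (0.60). Jointly over the 6 times it was called (edgeR adjusted p = 0.044), where 16% of genes were, and not with the replicate block (0.069). Of 70 list genes tested in LIV, 5.71% were called in the late fast: Usf1 (0.54) and Gab1 (0.50) rose and Crkl (-0.81) and Pik3r1 (-0.39) fell.

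In iBAT 4 members could be tested and 1 was called, against 20.9% of genes (3037 of 14529). Ngfr was at 1.67, 0.963 and 4.27 normalized CPM at 0 h, at 1.5, 0.529 and 0.839 at 18 h and at 0.319 and 0.334 at 22 h. The 22 h libraries, with 1 and 3 counts, were among the lowest of the organ, and the 18 h libraries overlapped with the fed ones. The 22 h library that the study left out held 4 counts at 1.48 CPM, within the fed range, and with all libraries the late log2FC was -1.53 (edgeR adjusted p = 0.095). The 4 summed counts of 22 h against 78 at 0 h gave a ratio of 0.157, with an exact 95% interval of 0.0418 to 0.419 for counting error only. The late log2FC was -1.96 (SE 0.64, edgeR adjusted p = 0.039), at 22 h alone -2.74 (0.030) and at 18 h alone -1.17 (0.63), and jointly over the 6 times the edgeR adjusted p was 0.043, where 29% of genes were called. Without 0 h replicate 3, the highest fed library, the late log2FC was -1.18 (edgeR adjusted p = 0.22). The call was also lost with a fed group of 0 and 2 h (-1.33, edgeR adjusted p = 0.088), and without 0 h replicate 2 or any 1 of 18 h replicates 2 and 3 and 22 h replicates 2 and 3 (edgeR adjusted p 0.051 to 0.090). The replicate block ended both the late and the joint call, and length offsets ended the joint call (edgeR adjusted p = 0.052). Schwann cell markers, which often accompany Ngfr in nerves, summed to 28.96 to 37.5 CPM in the fed and 13.6 to 45.7 in the late libraries, and their part in the value was not tested.

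Ntrk3 in iBAT was at 173, 265 and 271 normalized CPM at 0 h, 255, 156.6 and 241 at 18 h, and 84.7 and 115.7 at 22 h. The 22 h libraries were in lanes that held no fed iBAT library, so that lane and 22 h cannot be told apart, for Ngfr as well. Both 22 h libraries and 18 h replicate 2 lay below the fed range, and at 22 h alone the log2FC was -1.23 (edgeR adjusted p = 0.016) against -0.68 (0.098) for the late fast as a whole. Ntrk2 was at 181, 188.4 and 152.6 in the fed libraries and at 149.4 and 129 at 22 h, with a late log2FC of -0.18 (edgeR adjusted p = 0.41). iBAT fold changes followed gene length as those of BRN did, with a late slope of -0.252 for each 2-fold increase in length, and with length offsets Ntrk2 rose by 0.67 (edgeR adjusted p = 0.030) and Ntrk3 had 0.38 (0.16). The direction of both therefore depends on that correction, and for Ngfr it did not (-2.003, 0.047). Of 80 list genes tested, 19 fell and none rose in the late fast (23.8%, against 20.9% of all genes, of which 1149 rose and 1888 fell), with a median log2FC of -0.39 against -0.07 over all genes. At 18 h alone 1 list gene was called, at 22 h alone 32, and with length offsets 13. The Trk adaptors held 7 of the 19, among them Sh2b2 (-1.12) and Sos1 (-1.15). The sorting receptor Sorl1 (-1.93), the protease Adam17 (-0.92), the kinase subunit Pik3cb (-1.04) and the kinase Rps6ka3 (-1.17) fell too.

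**Figure D4:**
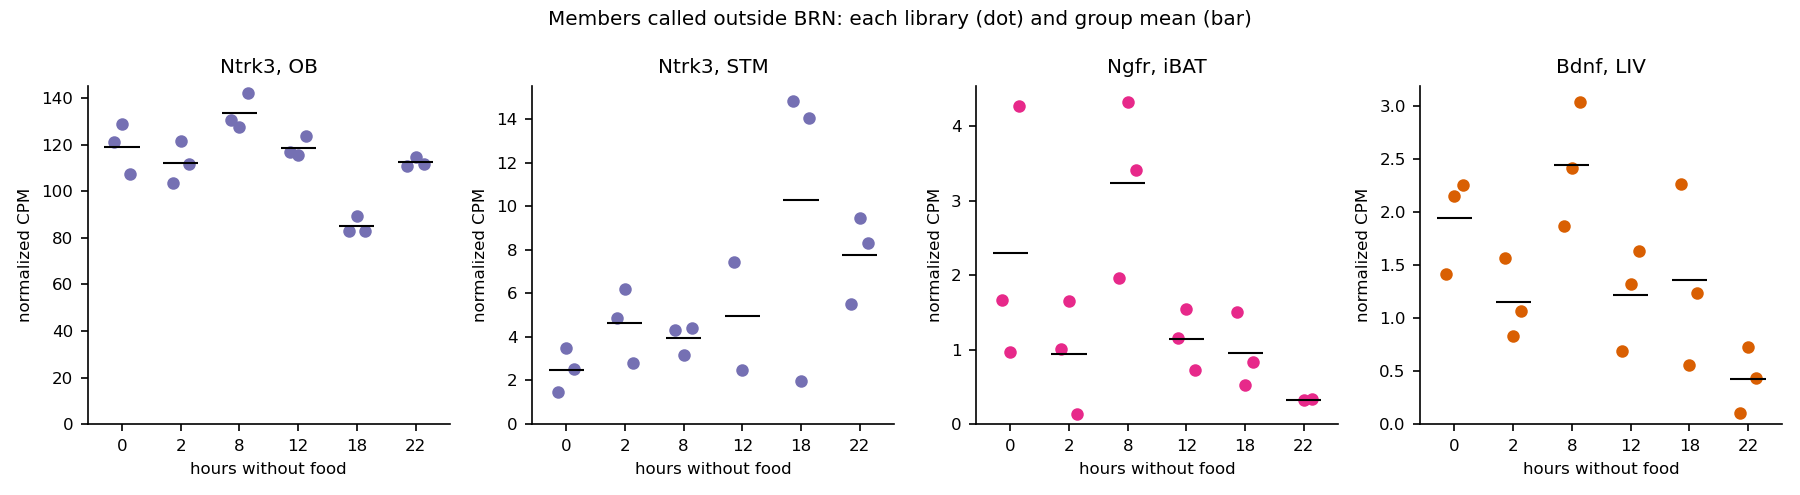
Normalized CPM against hours without food for Ntrk3 in OB and STM, Ngfr in iBAT and Bdnf in LIV, with 1 dot per library and a bar at the mean of each time. Ntrk3 in OB is lowest at 18 h and back in the fed range at 22 h, and Ntrk3 in STM exceeds 14 in 2 of the 3 libraries of 18 h.

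White adipose tissue gave no called member. In pgWAT the fed and the late libraries were in different lanes, which cannot be told apart from the fast. In pgWAT the 5 tested members had late log2FC from -0.49 to 0.61, and 0.00609% of genes were called (1 by edgeR, 1136 by DESeq2, 3567 at an unadjusted p under 0.05). The late log2FC of Ntrk2 was -0.45 and that of Ntrk3 -0.38, beside medians of -0.30 and -0.18 over genes of like length. Ntrk2 in pgWAT was at 212, 33.4 and 197 normalized CPM at 22 h, so that 1 library stood apart. Ntf3 in pgWAT was at 1.73 to 2.78 in the fed libraries and at 0.748 to 1.66 in the daytime fast, without overlap, and at 0.959 to 2.92 in the late fast. Its daytime log2FC was -0.999 (edgeR adjusted p = 0.60), where 0% of genes were called (0 by edgeR, 6 by DESeq2, 1289 at an unadjusted p under 0.05). In psWAT the 5 tested members had late log2FC from -1.58 to 2.27 and 0% of genes were called (0 by edgeR, 12 by DESeq2, 867 at an unadjusted p under 0.05).

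The psWAT libraries differed widely within each time. Ntrk2 was at 163, 98.6 and 14.6 normalized CPM at 0 h, at 14.5, 16.2 and 12.9 at 2 h and at 239, 84.5 and 182 at 8 h. It was at 23.1, 9.55 and, in the library with cerebellar markers, 192.9 at 12 h, at 29.4, 42.9 and 51.7 at 18 h, and at 3.54 and 93 at 22 h. White fat markers summed to 1444 to 4823 CPM in 8 of the libraries and to 53.96 to 734 in the others. This division was drawn from the sums after the data were seen. Apart from the library with cerebellar markers, Ntrk2 was at 42.9 to 239 in the former and at 3.54 to 29.4 in the latter. The relation was not tested, and both kinds of library were found at 0, 18 and 22 h.

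Ntrk3 in psWAT was at 73.5, 40.5 and 19.3 normalized CPM at 0 h, at 124.8, 33.2 and 85.5 at 8 h and at 12.6 and 134.9 at 22 h. Ngfr ran the other way from the Trk receptors in several libraries and was at 5.78, 6.44 and 15.2 at 0 h, at 2.01, 9.29 and 0.756 at 8 h and at 1.69 and 1.43 at 22 h. T and B cell markers ranged from 30.6 to 1362 CPM over the libraries of the organ. The part of tissue makeup in the values of psWAT was not tested, and leaving out the library with cerebellar markers does not enter the late fast, which uses 0, 18 and 22 h, other than through the shared spread.

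**Figure D5:**
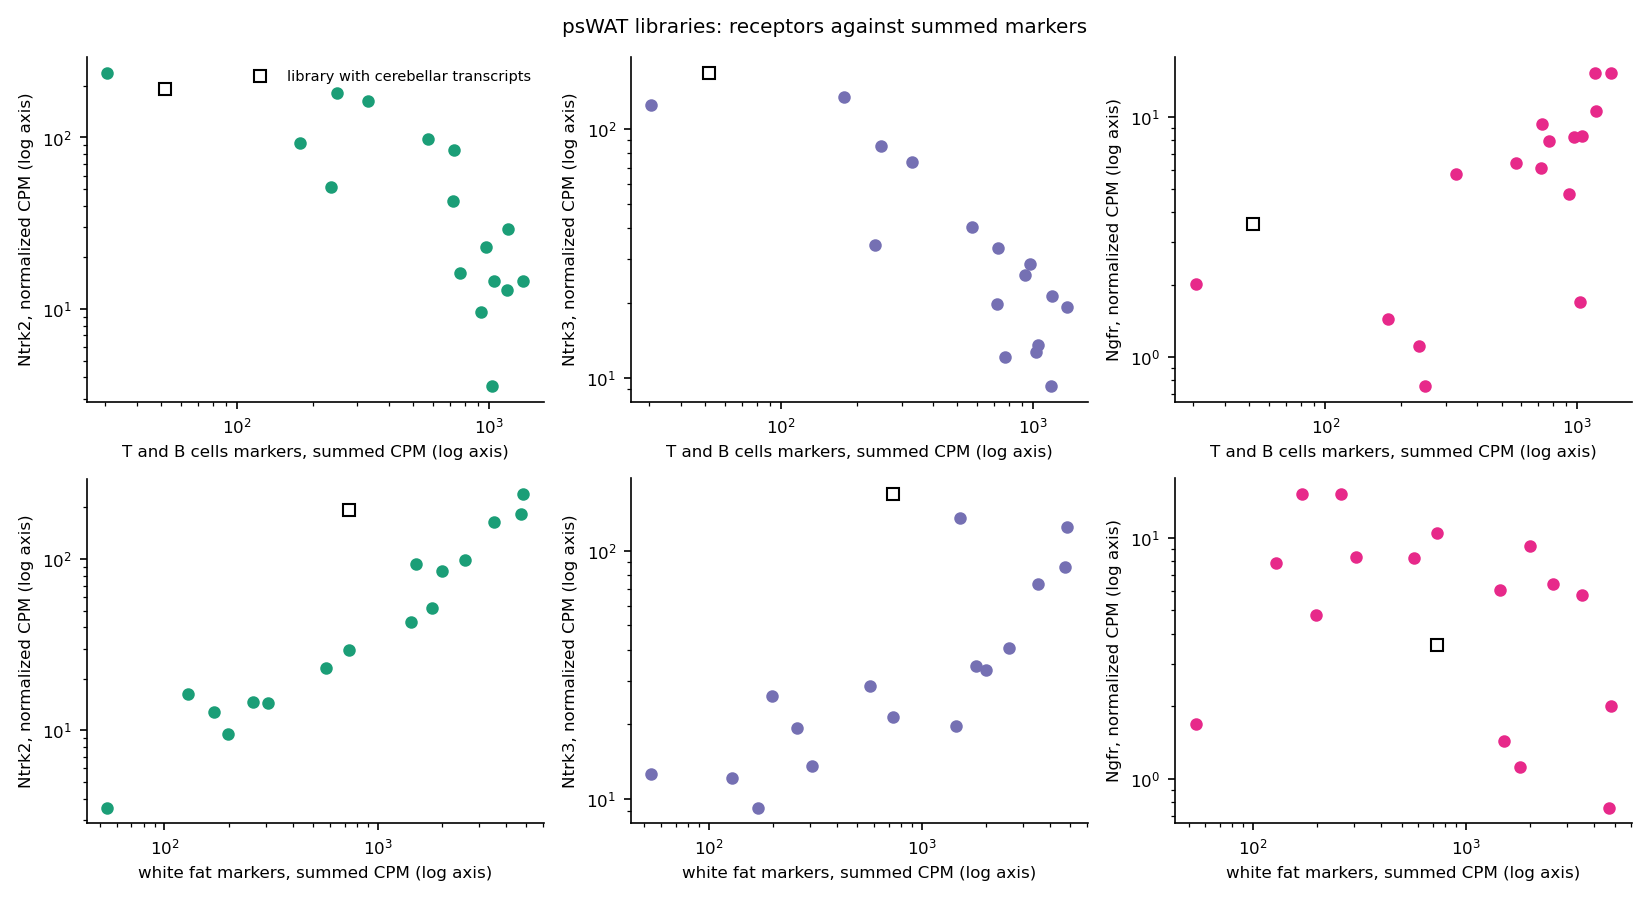
Normalized CPM of Ntrk2, Ntrk3 and Ngfr in each psWAT library (log axis) against the summed CPM of T and B cell markers (top) and of white fat markers (bottom), with 1 dot per library and an open square for the library with cerebellar markers. Ntrk2 runs from 3.54 in a library with a white fat sum of 53.96 to 239 in 1 with a sum of 4823. The library at 239 is 8 h replicate 1, which lay nearer to the pgWAT mean than to that of psWAT.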

How the data were processed

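Each library was 1 organ of 1 mouse. The authors made stranded, poly(A) selected libraries and sequenced them from both ends. Reads were aligned to GRCm38 with TopHat2 (2.1.1), and those that mapped to 1 place were assigned to Gencode exons by HTSeq-count (0.9.1). The deposited values are raw counts per gene, unnormalized and unfiltered. The strand setting of the counting was not given in the sources used here. Unique mapping leaves out reads shared with near-identical copies, and no UMIs were used. White adipose RNA was extracted with another lysis reagent and kit than that of the other organs, so that extraction and organ cannot be told apart there.

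Of 162 libraries, the 157 that the study kept were used. The others were STM 12 h replicate 3, 1 library of 22 h each in psWAT (replicate 2) and iBAT (replicate 1), and in BRN replicate 1 of 18 h, with 279848 counts, and replicate 3 of 8 h, with 130701. Groups and replicate numbers came from the sample labels. The members and lists were chosen with earlier results of these data known. A gene was tested where at least 3 libraries of the organ reached the CPM that 10 counts make at the median library total. Within each organ, edgeR 4.0.16 (TMM, robust quasi-likelihood, R 4.3.3, with limma 3.58.1) fitted the 6 times. Levels came from 1 further fit over the 9 organs with organ and time. Interactions came from a separate fit over OB, BRN, CBL and BST with a group for each region and time. Adjusted p-values are Benjamini-Hochberg over all genes tested. Alternatives were DESeq2 1.42.0, its size factors, no filter, all libraries, a replicate block, each library left out, a fed group of 0 and 2 h, a BRN library-name series covariate, offsets for gene length, and leaving out libraries that stand apart. The single times of 18 and 22 h and levels without TMM factors were added after the data were seen. The code was tested on simulated data.

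The same replicate number within a time is the same mouse in every organ, by the study's design, so that organs are paired by animal. Within an organ a number marks no shared mouse across times, and the check of deviations gave mean correlations between same-numbered libraries of -0.073 to 0.159.

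All 6 members are named everywhere. From the pathway lists, up to 6 called genes with the smallest adjusted p in each direction are named per comparison (1 gene that the rule names is not reported here), and the 3 genes most like each member by Pearson correlation of log2 (normalized CPM + 0.5). Lengths and positions come from a later Gencode release of GRCm38 than that counted, and promoter windows from RefSeq. The RefSeq table had windows for Bdnf, Ntf3, Ntrk2 and Ngfr. Python 3.11.15 with numpy 2.4.6, matplotlib 3.10.9 and pandas 2.3.3 drew the figures and summaries.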

Additional observations from a re-analysis of the deposited data

Results flagged for a closer look

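The late effect differed between BRN and another brain region for 10 pairs of member and region, by an interaction in the edgeR fit over the brain regions, with BRN lower in each. Of all genes 17.5% were called against OB, 29.3% against CBL and 30.7% against BST. For Ngfr the difference was -1.93 against OB, -2.33 against CBL and -2.49 against BST on the log2 scale. For Ntrk3 it was -0.52, -0.68 and -0.85 in the same order. For Bdnf it was -0.83 against CBL and -0.79 against BST, and for Ntrk2 it was -0.44 and -0.31. The 3 contrasts share the BRN libraries and are not independent of each other. In CBL depth and fed state cannot be told apart. All late BRN libraries belong to the second library-name series and all fed ones to the first, and the part of the series in these differences was not tested. Late fold changes in BRN also followed gene length, and with length offsets the BRN log2FC was 0.01 for Ntrk3 and 0.36 for Ntrk2, while the interactions were not fitted with such offsets. These 10 pairs come from the fit without the animal as a block. With it, Ntrk3 against OB no longer passed (edgeR adjusted p = 0.051) and Bdnf against OB did (0.033). With the left-out libraries added, 1 member was called against OB, 4 against CBL and 2 against BST.

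A signal of Ntf5, a TrkB ligand, appeared in a library that the comparisons did not use, STM 12 h replicate 3, at 2.83 CPM from 13 counts. The highest fed STM library was at 1.32 CPM.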

How the results depend on the processing

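The late log2FC of members kept direction and side of the threshold in 280 of 324 alternatives that left the replicates whole, with 23 reversed in sign, 15 no longer past the threshold and 6 newly past it. The daytime fast in BRN did so in 41 of 45, the order of organs in all but 19 and the interactions in 25 of 30. Unless a value shows it, the cause of a change was not tested.

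Members called in the late fast of BRN (2 by edgeR as reported) numbered 1 at 18 h alone, 1 at 22 h alone and 1 with length offsets, and 0 with all libraries, with the series covariate and without 2 h replicate 3 and 18 h replicate 2. In the daytime fast of BRN 0 were called with all libraries, the series covariate and length offsets. In OB and STM 0 were called at 22 h alone, and in STM 0 with the replicate block. In LIV 1 was called at 22 h alone and 1 by DESeq2. In iBAT 2 were called at 22 h alone and 2 with length offsets, and 0 at 18 h alone, with all libraries and with the replicate block. Jointly over the 6 times DESeq2 called 2 members in OB, 2 in BRN, 1 in CBL, 1 in STM and 2 in iBAT, no filter gave 1 in BST, 2 in CBL, 1 in BRN and 2 in OB, and the block gave 0 in LIV and iBAT. With all libraries 1 member was called between BRN and OB and 2 between BRN and BST. Pathway list genes called in the late fast ranged from 0 to 24 in BRN, 0 to 13 in OB, 0 to 20 in STM, 2 to 7 in LIV and 1 to 32 in iBAT over the alternatives that left the replicates whole.

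Genes called in the late fast of BRN numbered 404 at 18 h alone, 1152 at 22 h alone, 3015 by DESeq2, 0 with all libraries or the series covariate, 1244 with a fed group of 0 and 2 h, 1.9e+02 without the 2 named libraries and 892 with length offsets. In the daytime fast of BRN they were 2469 by DESeq2, 2261 without a filter, 15 with all libraries, 492 with the wider fed group, 0 with the series, 2081 without the 2 named libraries and 1 with length offsets. In OB they were 2012 at 18 h alone, 19 at 22 h alone, 810 by DESeq2, 1580 without a filter, 644 with the block and 815 with the wider fed group, and jointly 4388 without a filter. STM had 39 at 22 h alone, and LIV jointly 3585 by DESeq2 and 4055 without a filter. iBAT had 40 at 18 h alone, 5960 at 22 h alone, 5230 with the wider fed group and 1969 with length offsets, and jointly 2784 with length offsets.

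These late log2FC turned in sign. With length offsets Ntrk2 (0.36) and Ntrk3 (0.0103) did in BRN, Ntrk2 (0.67), Ntrk3 (0.38) and Ntf3 (-0.0043) in iBAT, and Ntrk2 (0.43) in the daytime fast of BRN. Ntf3 in BRN was at 0.053 with the series covariate and at 0.035 without the 2 named libraries. At 18 h alone Ntrk3 in CBL was at 0.029, Ntf3 (0.075) and Ntrk2 (-0.52) turned in STM, Ntf3 in iBAT (-0.24), and Bdnf (-0.029) and Ngfr (-0.53) in pgWAT. At 22 h alone Bdnf (0.15) and Ntf3 (-0.16) turned in CBL, Ntrk3 in BST (-0.028), and Ntf3 (0.31) and Ntrk3 (0.73) in psWAT. With the wider fed group Ntrk3 in BST was at -0.043, Ntrk2 in STM at -0.36, and Ntf3 (0.78), Ntrk2 (0.28) and Ntrk3 (0.92) in psWAT.

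Between neighbouring organs Ntrk3 in BRN over BST was at -0.15 with all libraries and Ntf5 in OB over LIV at -0.31 by DESeq2. Bdnf in psWAT over pgWAT was at -0.026 with the animal as a block and at -1.79 without the library with cerebellar markers. Ntf3 in psWAT over BRN was at -0.0026 without that library and at -0.030 by DESeq2, and in BRN over pgWAT at -0.0052 with the block and -0.057 with all libraries. Ntrk3 in pgWAT over STM was at -0.028 by DESeq2. Ngfr in psWAT over CBL was at -0.022 with the block and -0.037 with all libraries, and in BRN over STM at 0.022 with the block.

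Leaving out 1 library at a time moved the members called in the late fast to 0 to 4 in BRN and 0 to 1 in OB, STM, LIV and iBAT, and to 0 to 1 in the daytime fast of BRN. Genes called ranged from 0 to 5597 in BRN, 3 to 1251 in OB, 489 to 3407 in STM and 647 to 4630 in iBAT in the late fast, and from 0 to 1795 in BRN in the daytime fast. Late log2FC whose sign depended on 1 library were those of Ntf3 in BRN (-3.34 to 0.035; daytime -0.079 to 0.62), Ngfr (-0.0001 to 0.16) and Ntf3 (-0.13 to 0.13) in CBL, Ntrk2 in BST (-0.12 to 0.025), Ntf3 (-0.23 to 0.12) and Ntrk2 (-0.43 to 0.82) in STM, Ntf3 in iBAT (-0.18 to 0.64), Bdnf in pgWAT (-0.15 to 0.50), and Ntf3 (-0.57 to 0.44) and Ntrk3 (-1.32 to 0.52) in psWAT.

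Replicate numbers do not pair libraries within an organ. With them as a block, 2 of 45 member results of the late fast and of the daytime fast in BRN changed side of the threshold, Ntrk3 in STM (1.78, edgeR adjusted p = 0.054) and Ngfr in iBAT (-1.95, edgeR adjusted p = 0.0504). The block also ended the joint calls of Bdnf in LIV and Ngfr in iBAT, which that count leaves out. Low counts limit Ntf3 and Ntf5 in most organs, Bdnf in LIV and Ngfr in BRN at 18 h and iBAT at 22 h, where 1 library holds 0 to 4 counts.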
